A study of Homo sapiens with 12 samples.

Results

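Lenalidomide was given to AGO2 cDNA My5.LV cells, and the levels of 372 miRNAs were compared between 1 array with and 1 array without the drug. These are 2 of the 12 arrays of the study. My5.LV cells are OCI-My5 cells, an established human multiple myeloma line, infected with an empty lentiviral vector carrying GFP and sorted for GFP. They express little CRBN, and the study describes them as IMiD-resistant. The AGO2 cDNA cells had in addition been infected with lentivirus carrying epitope-tagged AGO2 (EIF2C2 in the labels) under the CMV promoter and selected with puromycin. One array held RNA of these cells with no drug, and the other held RNA of the same cells after 10 μM lenalidomide for 72 hours. For the comparisons below, the same treatment of My5.LV cells without AGO2 cDNA and of AGO2 cDNA My5.CRBN cells, which carry a CRBN cDNA and are CRBN-high, gave 1 array per condition as well. A miRNA array holds no assay for the mRNA of AGO2 or CRBN, so neither transgene was checked here.

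Argonaute proteins hold the mature miRNA and lead it to its target mRNAs, and AGO2 is the human Argonaute known to slice a fully matched target. Each hairpin precursor can give a mature miRNA from its 5p and its 3p arm, and usually one arm is loaded and kept while the other is degraded. CRBN, the protein that lenalidomide binds, is part of a ubiquitin ligase. The comparison addresses which miRNAs change with lenalidomide when AGO2 is supplied from a cDNA in CRBN-low cells.

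The threshold cycle (Ct) is the PCR cycle at which a well crosses the detection threshold, and it falls as the level of a miRNA rises. Ct values were capped at 35 and the mean Ct of the 6 small-RNA wells of the array was subtracted to give a normalized Ct. The log2 fold change is the normalized Ct without minus that with lenalidomide. Of the 372 miRNAs, 353 were under the cap on both arrays, 13 were at the cap on 1 array and have a bound, and 6 were at the cap on both and have no value. With 1 array per condition there was no replicate and no test, and precision is limited by this number of arrays. As a yardstick of spread, the 6 small-RNA wells themselves had log2 fold changes with an SD of 0.39. Their Ct lay between 17.0 and 23.5 on these arrays, so this SD does not give the spread of scarce miRNAs.

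After lenalidomide, 35 of 366 miRNAs were at least 3-fold lower (9.56%) and 1 was at least 3-fold higher (0.273%). The sequences of the miRNAs on which these results turn are printed first, 5′ to 3′, with the seed (bases 2 to 8, which pair with the target) in capitals. They are from RefSeq, with positions in GRCh38.p14, and 330 of the 372 assays matched 1 mature sequence there. The first set holds miR-191-3p, miR-425-3p and miR-181c-3p, which were lower, and the 5p arms miR-191-5p and miR-181c-5p, since the arms of a hairpin did not move alike. The arms of a hairpin have different seeds.
miR-191-3p: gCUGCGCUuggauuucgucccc
miR-191-5p: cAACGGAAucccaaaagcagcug
miR-425-3p: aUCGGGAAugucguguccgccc
miR-181c-3p: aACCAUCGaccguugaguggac
miR-181c-5p: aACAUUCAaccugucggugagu

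The next set holds the members with a value of both seeds that have more than 1 lower miRNA. Members of a seed family differ outside the capitals, and the order follows their log2 fold changes from lowest to highest within each seed.
miR-363-3p: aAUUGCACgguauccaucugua
miR-32-5p: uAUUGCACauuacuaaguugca
miR-92a-3p: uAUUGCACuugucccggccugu
miR-92b-3p: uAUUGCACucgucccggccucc
miR-25-3p: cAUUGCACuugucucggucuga
miR-372-3p: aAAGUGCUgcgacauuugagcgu
miR-302a-3p: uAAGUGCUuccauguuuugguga
miR-373-3p: gAAGUGCUucgauuuuggggugu
miR-302c-3p: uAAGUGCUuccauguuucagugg
miR-520c-3p: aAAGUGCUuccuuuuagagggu

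The last set holds miR-221-3p and miR-222-3p, neighbours on chromosome X with 1 seed, and miR-580-3p, the miRNA that was higher.
miR-221-3p: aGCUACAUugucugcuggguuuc
miR-222-3p: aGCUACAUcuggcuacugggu
miR-580-3p: uUGAGAAUgaugaaucauuagg

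The array with lenalidomide crossed the threshold earlier in most wells. Its small-RNA wells had a mean Ct of 18.7, against 21.1 without the drug, a change of -2.42 cycles. The 2 reverse transcription control wells changed by -1.96 cycles on average, and the 2 positive PCR control wells, which hold their own template, by -1.93 cycles. The median miRNA under the cap on both arrays changed by -2.13 cycles. The 2 cel-miR-39-3p wells, an assay for a worm miRNA, did not follow. Their Ct was 33.8 on both arrays in one well, and 34.4 without and 34.6 with lenalidomide in the other. These duplicate wells differed by 0.619 cycles without and 0.856 cycles with lenalidomide. In the same order the duplicates differed by 0.186 and 0.012 cycles for reverse transcription and by 0.153 and 0.205 cycles for positive PCR. After normalization these wells had log2 fold changes of -2.39 and -2.63, past the 3-fold threshold. Changes of -0.024 and 0.213 cycles in Ct thus count as 5.26- and 6.19-fold lower in these wells. Of the 35 lower miRNAs, 32 changed by less than 1 cycle in Ct. At this shift the 3-fold threshold itself excludes a fall of 1 cycle among them, so the count follows largely from the call. The part of this array shift in the lower miRNAs was not tested.

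**Figure D1:**
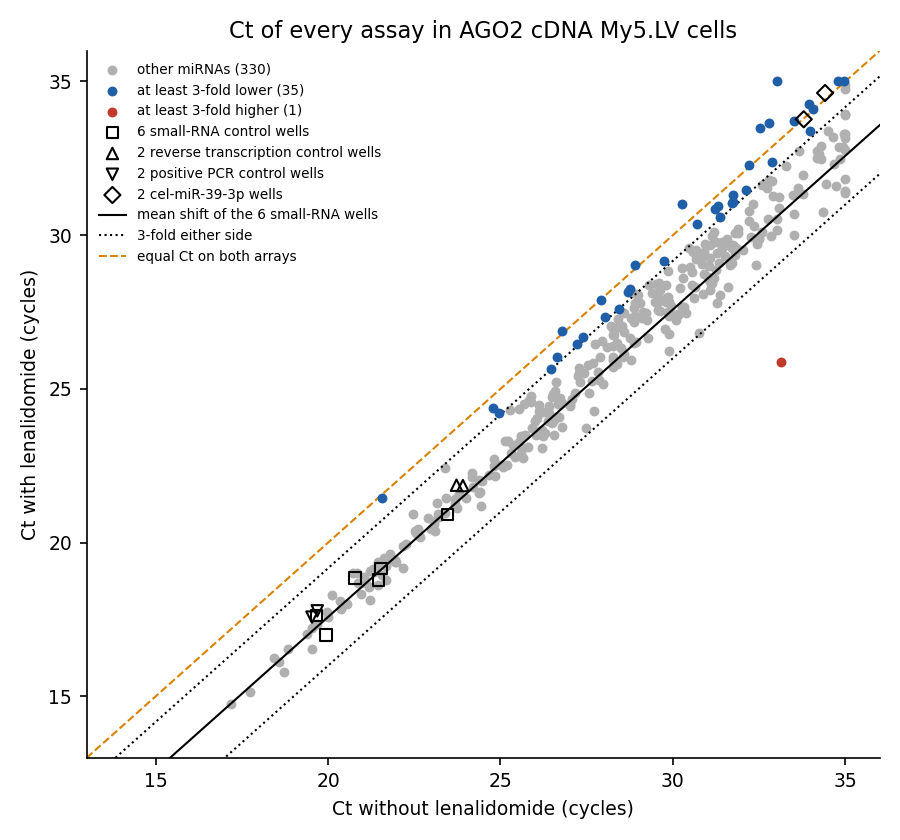
Ct without lenalidomide (x axis, cycles) against Ct with lenalidomide (y axis, cycles) for the 366 miRNAs with a value and 12 control wells in AGO2 cDNA My5.LV cells, with Ct values of miRNAs capped at 35. Most miRNAs lie along the solid line of the small-RNA wells, while the 35 lower miRNAs (blue) and both cel-miR-39-3p wells lie near the dashed line of equal Ct, and miR-580-3p (red) stands alone below. The call of lower miRNAs itself keeps the blue points close to the dashed line or above it.

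The median log2 fold change over all 366 was -0.30, with quartiles of -0.98 and 0.09, and 255 were below 0. A total of 269 miRNAs (73.5%) changed by less than 2-fold. The normalizer sets the middle of this distribution. The median was -0.83 with RNU6 alone, -0.20 with the 5 SNORD wells, 0.0925 with the global mean of the miRNAs and 0.16 with the reverse transcription wells. These normalizers add 1 constant to every miRNA, so the order of the miRNAs and the distance of each from the median of all are the same under each. The lower miRNAs numbered 73, 30, 18 and 16 under them, in that order. The 16 are all among the 35 and were miR-488-3p, miR-924, miR-363-3p, miR-649, miR-124-5p, miR-606, miR-708-3p, miR-221-3p, miR-181c-3p, miR-372-3p, miR-144-3p, miR-340-3p, miR-575, miR-191-3p, miR-549a and miR-211-5p. miR-211-5p and miR-191-3p among them were chosen after their values had been seen.

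The most abundant miRNAs were close to level. The 5 with the lowest mean Ct were miR-142-3p, miR-720, miR-16-5p, miR-19a-3p and miR-20a-5p. miR-142-3p, a miRNA of blood cells, had a Ct of 17.2 without and 14.7 with lenalidomide and a log2 fold change of 0.02. miR-16-5p, a miRNA with BCL2 among its known targets, had a log2 fold change of 0.53. That of miR-19a-3p was 0.06, that of miR-20a-5p was -0.22 and that of miR-720, since reassigned to a tRNA fragment, was 0.18. Among other miRNAs known in myeloma and B cells, miR-21-5p had a log2 fold change of -0.12, miR-17-5p one of -0.01, miR-150-5p one of -0.32 and miR-181a-5p one of 0.32. Each of these lay within 2-fold, and miR-16-5p was the only one of them further from 0 than the spread of the small-RNA wells.

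The lower miRNAs were found mainly among scarce ones. When miRNAs were grouped by Ct on the un-treated My5.LV array, which is outside the comparison, the 127 under Ct 26 had a median of -0.06 on the log2 scale, and 4 of them were at least 3-fold lower. The 239 at Ct 26 or more with a value had a median of -0.64, and 31 of them were at least 3-fold lower. In steps of Ct the medians were -0.09 under 22, 0.03 from 22 to 24, -0.16 from 24 to 26, -0.64 from 26 to 28, -0.66 from 28 to 30, -0.59 from 30 to 32 and -0.72 above. The fall of the median thus lay between Ct 24 and 28. In My5.LV cells without AGO2 cDNA, the same groups under and from Ct 26 had medians of -0.16 and -0.09. In AGO2 cDNA My5.CRBN cells they had medians of -0.02 and 0.34. The median of the scarce group minus that of the abundant group, which no normalizer changes, was -0.58 in AGO2 cDNA My5.LV cells, 0.07 without AGO2 cDNA and 0.36 in AGO2 cDNA My5.CRBN cells. Each rests on a single pair of arrays. The small-RNA wells of the My5.CRBN arrays changed by -1.54 cycles and those of the My5.LV arrays without AGO2 cDNA by 0.21 cycles.

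**Figure D2:**
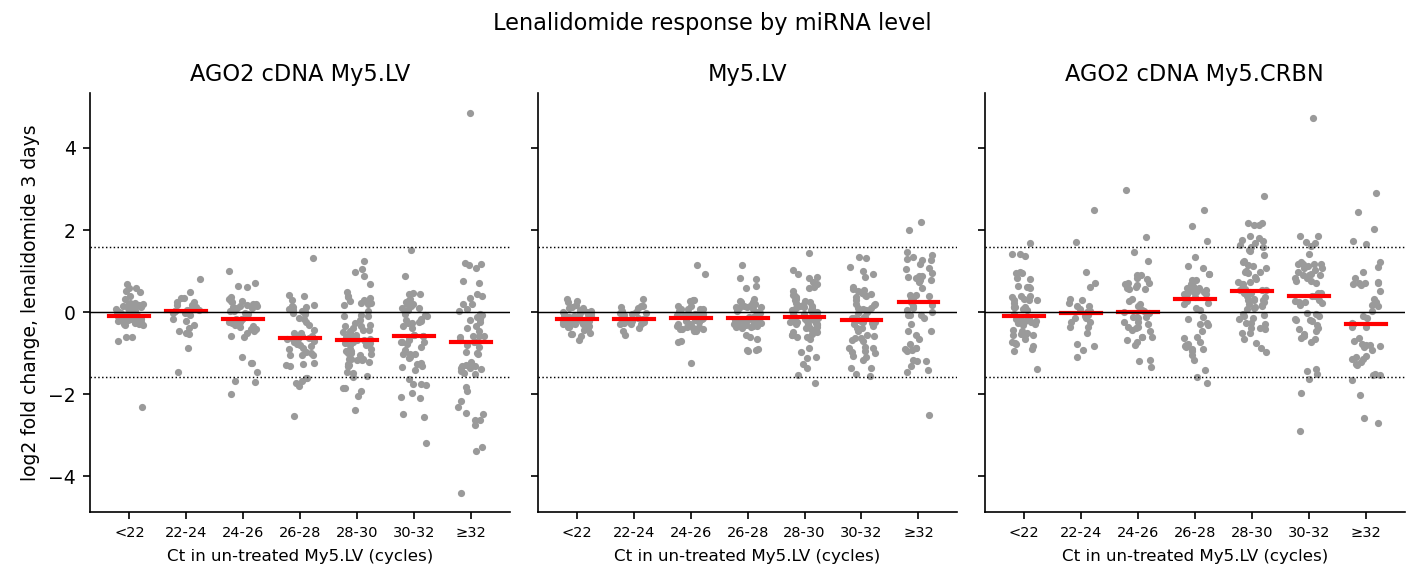
Log2 fold change after 3 days of lenalidomide (y axis) of each miRNA with a value (points, bounds included) by its un-treated My5.LV Ct (x axis, cycles), with the median of each group as a red line and 3-fold as dotted lines. In AGO2 cDNA My5.LV cells the medians lie near 0 up to Ct 26 and between -0.59 and -0.72 beyond, which neither of the other panels shows.

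Of the 35 lower miRNAs, 11 had a Ct under 28 on at least 1 of the arrays, 4 had a lowest Ct from 28 to 30 and 20 had a lowest Ct of 30 or more. The 11 stand furthest from the cel-miR-39-3p wells in Ct, but their number depends on the normalizer: 3 of them were at least 3-fold lower with the reverse transcription wells, and 4 with the global mean or after the median of miRNAs of similar Ct was subtracted, an alternative chosen after seeing the data. They were miR-191-3p, miR-326, miR-425-3p, miR-486-5p, miR-335-3p, miR-129-5p, miR-32-5p, miR-181c-3p, miR-300, miR-433-3p and miR-575. Apart from miR-181c-3p and miR-575, which are among the 10 largest decreases, they were chosen after their values had been seen.

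miR-191-3p was the most abundant of them. Its Ct was 21.6 without and 21.4 with lenalidomide. Against the small-RNA wells, its normalized Ct was 1.52 in My5.LV, 2.04 in My5.LV with lenalidomide, 0.43 in AGO2 cDNA My5.LV and 2.72 in AGO2 cDNA My5.LV with lenalidomide. The level was thus highest with AGO2 cDNA alone and lowest with both, 4.92-fold lower after lenalidomide (log2 fold change -2.30). miR-191-3p was picked by the gap between these AGO2 cDNA arrays, a choice that itself favours this order. miR-425-3p lies 472 bases away. Its Ct was 24.8 without and 24.4 with lenalidomide, and its log2 fold change was -2.00. The normalized Ct of miR-425-3p was 4.90, 4.96, 3.65 and 5.65 in the same order of arrays.

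These miRNAs share a place in the genome. MIR425 and MIR191 are both on the minus strand of chromosome 3, where miR-425-3p spans 49020159 to 49020180 and miR-191-3p spans 49020631 to 49020652, inside the protein-coding gene DALRD3 (49015488 to 49021505). MIR191 also overlaps NDUFAF3. The 5p arms of the same hairpins did not show the change. miR-191-5p had a Ct of 21.0 without and 18.7 with lenalidomide and a log2 fold change of -0.14. miR-425-5p had a Ct of 21.8 without and 19.6 with lenalidomide and a log2 fold change of -0.25. The Ct of both 5p arms moved with the control wells while that of both 3p arms stayed within 0.42 cycles.

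miR-181c-3p gave the same picture. Its Ct was 26.8 without and 26.9 with lenalidomide, and it was 5.79-fold lower after normalization (log2 fold change -2.53). The opposite arm, miR-181c-5p, had a log2 fold change of -0.16. The normalized Ct of miR-181c-3p was 7.15 in My5.LV, 6.91 with lenalidomide, 5.63 with AGO2 cDNA and 8.16 with both. miR-335-3p had a log2 fold change of -1.80, and miR-335-5p one of -0.41. For miR-32 the order was turned, with -1.71 for the abundant miR-32-5p and -0.32 for the scarcer miR-32-3p.

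**Figure D3:**
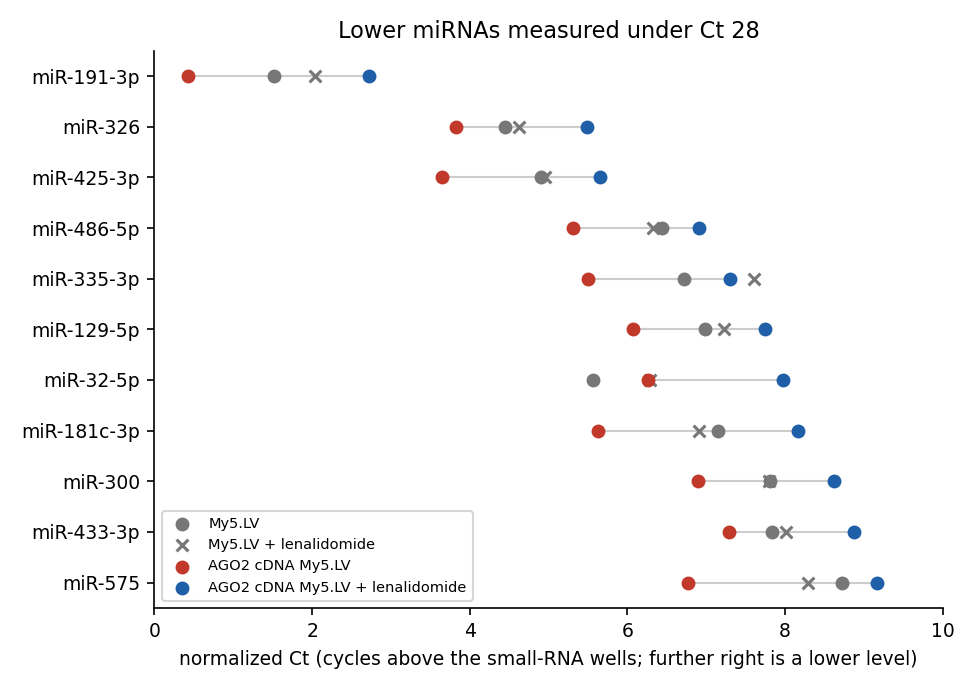
Normalized Ct (x axis, cycles above the mean of the small-RNA wells, with a lower level further right) of the 11 lower miRNAs measured under Ct 28, on the arrays of My5.LV and AGO2 cDNA My5.LV cells with and without lenalidomide, 1 point per array. For each miRNA but miR-32-5p the level with AGO2 cDNA alone is the highest of the 4 arrays, and for each but miR-335-3p the level with AGO2 cDNA and lenalidomide is the lowest. The 11 were picked by the gap between the AGO2 cDNA arrays with and without lenalidomide. That choice itself favours this order of the arrays.

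Across the 11 miRNAs the log2 fold changes ran from -2.53 to -1.59, with a median of -1.73. Without AGO2 cDNA the same treatment of My5.LV cells gave them a median of -0.18, with a range of -0.89 to 0.43, and 0 of the 11 were at least 3-fold lower. In AGO2 cDNA My5.CRBN cells their median was 0.15, and 1 of the 11, miR-335-3p at -1.73, was at least 3-fold lower. These comparisons share no array with that of the AGO2 cDNA My5.LV cells. The 11 were picked for low values in that comparison, so values closer to those of all miRNAs elsewhere can follow from the choice alone. The medians of all miRNAs were -0.13 in My5.LV cells without AGO2 cDNA and 0.19 in AGO2 cDNA My5.CRBN cells. Over all miRNAs in My5.LV cells without AGO2 cDNA, 0.549% were past 3-fold downwards and 0.549% upwards. The shares in AGO2 cDNA My5.CRBN cells were 2.51% downwards and 8.64% upwards.

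The arms of a hairpin were set side by side for the 76 hairpins with both arms under the cap on both arrays. The arm with the lower Ct on the un-treated My5.LV array was called abundant and the other scarce. The scarce arm had the lower log2 fold change in 52 of the 76 hairpins, and the median of scarce minus abundant was -0.29, from -3.31 to 2.79. In My5.LV cells without AGO2 cDNA this held for 34 of 74 hairpins with a median of 0.06, and in AGO2 cDNA My5.CRBN cells for 30 of 67 with a median of 0.16. In the 25 hairpins whose scarce arm was under Ct 28 on the un-treated My5.LV array, the scarce arm was the lower one in 19, with a median of -0.29. The median Ct was 24.6 for abundant and 29.3 for scarce arms, so arm and level go together.

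Single hairpins differed in either direction. Among these 76 the largest gap was in miR-708, with -2.62 for miR-708-3p (Ct 33.5 and 33.7) and 0.69 for miR-708-5p. miR-223, a miRNA of myeloid cells, had 1.06 for miR-223-3p and -1.38 for miR-223-5p. In miR-302a, of embryonic stem cells, miR-302a-3p had -1.62 and miR-302a-5p had 1.17. In miR-363, outside the 76, miR-363-5p was at the cap without lenalidomide and had a log2 fold change of at least 1.15, against -3.28 for miR-363-3p. The Ct of miR-302a-5p was 34.4 without and 30.8 with lenalidomide.

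**Figure D4:**
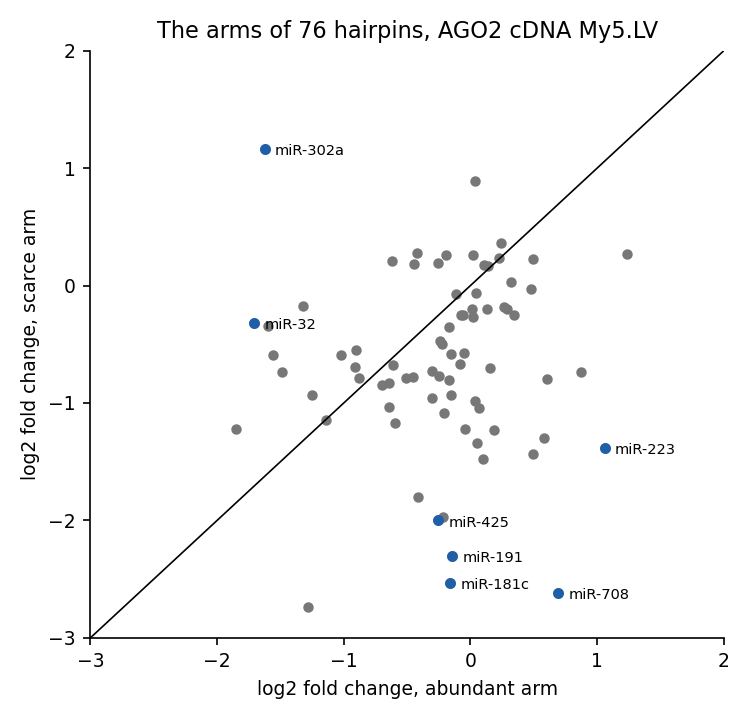
Log2 fold change after lenalidomide of the abundant arm (x axis) and the scarce arm (y axis) of 76 hairpins in AGO2 cDNA My5.LV cells, with the line of equal change. In 52 hairpins the point lies below the line, as for miR-191, miR-425, miR-181c, miR-708 and miR-223, while miR-302a and miR-32 lie above it.

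Of the 264 seeds of the assays with a matched sequence, 2 had more than 1 lower miRNA. The share of lower miRNAs over all 366 was 9.56%, and whether these 2 seeds stand out from it was not tested. In the family of the AUUGCAC seed, miR-363-3p had a log2 fold change of -3.28 (Ct 32.8 without and 33.6 with lenalidomide) and miR-32-5p one of -1.71. The more abundant members of this seed had values closer to 0. miR-92a-3p had -0.61, miR-92b-3p had -0.35 and miR-25-3p had 0.02. In the family of the AAGUGCU seed, which is known from embryonic stem cells, miR-372-3p had -2.49 (Ct 32.2 and 32.3) and miR-302a-3p had -1.62. Its other members with a value were miR-373-3p at -0.85, miR-302c-3p at -0.49 and miR-520c-3p at 0.71. Within a seed the values thus ran from -3.28 to 0.02 and from -2.49 to 0.71.

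miR-221-3p and miR-222-3p, which target the cell-cycle inhibitor CDKN1B, were both lower in level. miR-221-3p had a Ct of 28.9 without and 29.0 with lenalidomide and was 5.85-fold lower (log2 fold change -2.55). miR-222-3p, 856 bases away on the same strand, had a Ct of 29.0 without and 28.1 with lenalidomide and a log2 fold change of -1.49, which is short of 3-fold. In My5.LV cells without AGO2 cDNA the log2 fold changes were 0.20 for miR-221-3p and 0.12 for miR-222-3p. In AGO2 cDNA My5.CRBN cells they were -1.62 and -0.07.

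Most of the other large decreases were measured at a high Ct. miR-924 (Ct 32.5 and 33.5, log2 fold change -3.37), miR-649 (Ct 30.3, and 0.77 cycles later with lenalidomide, -3.18), miR-124-5p (Ct 33.9 and 34.3, -2.74) and miR-144-3p (Ct 34.1 on both arrays, -2.48) had a Ct that was the same or later with lenalidomide. miR-575 had a Ct of 27.9 on both arrays and a log2 fold change of -2.38. For miR-488-3p, at the cap with lenalidomide, the decrease was at least 21.1-fold, from a Ct of 33.0. It was at least 6.15-fold for miR-606 and at least 5.49-fold for miR-340-3p. Over the 12 arrays the cel-miR-39-3p wells ran from Ct 31.5 to 38.8, and of the miRNAs in this paragraph so far only miR-649 and miR-575 were detected earlier than that. miR-377-5p and miR-136-5p, at the cap without lenalidomide, had computed log2 fold changes of -2.31 and -2.16. Their true values are these or higher, so their direction is not known and they are not among the 35.

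miR-580-3p was the 1 miRNA at least 3-fold higher. Its Ct was 33.9 in My5.LV, 33.8 in My5.LV with lenalidomide, 33.1 in AGO2 cDNA My5.LV and 25.9 in AGO2 cDNA My5.LV with lenalidomide. The last array stands apart from the other 3 by over 7 cycles, and after normalization the increase was 29.1-fold (log2 fold change 4.86). The value rests on 1 well. In AGO2 cDNA My5.CRBN cells miR-580-3p had a log2 fold change of 0.70. MIR580 lies on chromosome 5 inside LMBRD2, and it has no other miRNA of the array within 50 kilobases.

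The next largest increases were all short of 3-fold with this normalizer. miR-570-3p, the highest of these, had a Ct of 30.7 without and 26.8 with lenalidomide and a log2 fold change of 1.51. miR-431-5p, of the imprinted chromosome 14 region, had 1.33 (Ct 27.5 and 23.7), and miR-143-3p, a miRNA of smooth muscle and stroma, had 1.24 (Ct 29.9 and 26.2). miR-302a-5p (1.17), miR-30c-1-3p (1.07), miR-223-3p (1.06), miR-190a-5p (1.01), miR-429 (0.97) and miR-186-3p (0.89) followed. With a Ct cap of 32, miR-302a-5p and miR-30c-1-3p were at the cap without lenalidomide, and their values of -1.19 and -0.44 there are lower bounds that leave the direction unknown. In AGO2 cDNA My5.CRBN cells miR-431-5p had 1.73, miR-143-3p had 2.17, miR-190a-5p had 1.82 and miR-223-3p had 1.51. In My5.LV cells without AGO2 cDNA they had -0.27, 0.61, 0.02 and 0.72.

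The lenalidomide log2 fold changes with and without AGO2 cDNA could be compared for the 342 miRNAs under the cap on all 4 arrays. The response with AGO2 cDNA was higher by at least 3-fold for 8 miRNAs (2.34%) and lower by as much for 34 (9.94%). Among the largest differences, that of miR-649 was -3.75, that of miR-363-3p -3.32, that of miR-549a -2.95, that of miR-372-3p -2.88 and that of miR-205-3p -2.88. On the higher side were miR-580-3p (4.56), miR-429 (2.49), miR-155-3p (1.85), miR-542-3p (1.85) and miR-377-3p (1.68). miR-429, of the epithelial miR-200 family, had -1.52 without and 0.97 with AGO2 cDNA. miR-155-3p, from the B-cell activation gene MIR155HG, had -0.98 without and 0.87 with it. Relative to un-treated My5.LV cells, miR-155-3p was at -1.13 with AGO2 cDNA alone and at -0.26 with AGO2 cDNA and lenalidomide. The study lists miR-429 too as lower with AGO2 cDNA alone. The array with AGO2 cDNA alone enters both comparisons. Across the 342 miRNAs the Pearson r between the responses was 0.03 and Spearman's rho was near 0. Between AGO2 cDNA My5.LV and AGO2 cDNA My5.CRBN cells, over 322 miRNAs, Pearson's r was 0.08. miRNAs are not independent replicates, so these correlations are descriptions.

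**Figure D5:**
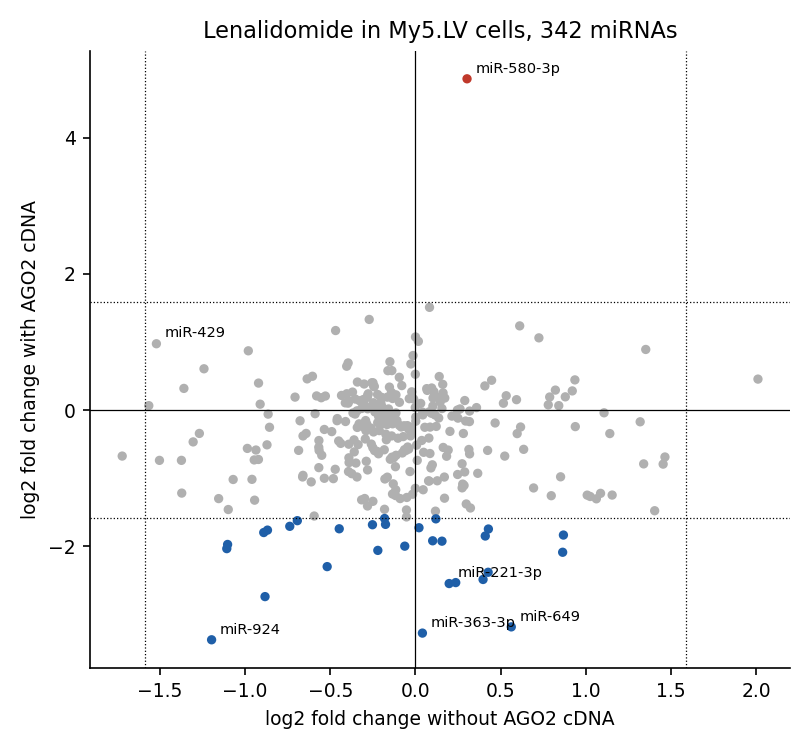
Log2 fold change with 3 days of the drug in My5.LV cells without AGO2 cDNA (x axis) and with AGO2 cDNA (y axis) for 342 miRNAs, with 3-fold as dotted lines and miRNAs at least 3-fold lower (blue) or higher (red) with AGO2 cDNA coloured. The blue points spread on both sides of 0 on the x axis, and miR-580-3p lies at 0.30 without and 4.86 with AGO2 cDNA.

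The lower miRNAs were also set against un-treated My5.LV cells. The array of AGO2 cDNA My5.LV cells without drug enters both the AGO2 comparison and the lenalidomide comparison, so the values are only given side by side. The array with AGO2 cDNA and lenalidomide likewise served to pick the lower miRNAs and gives their values with both. That choice favours high values with AGO2 cDNA and low values with both. For the 29 lower miRNAs under the cap on all 4 My5.LV arrays, the median log2 fold change over un-treated My5.LV cells was 0.92 with AGO2 cDNA, -0.06 with lenalidomide and -1.05 with both. Over all miRNAs these medians were 0.15, -0.13 and -0.17. Relative to un-treated cells, miR-221-3p was at 2.34 with AGO2 cDNA alone, miR-363-3p at 1.96 and miR-549a at 2.28. miR-567, with -0.84, and miR-32-5p, with -0.70, were already below un-treated cells before the drug. miR-567 was chosen after its value had been seen.

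Of 25 lists of miRNA families, clusters and cell-type groups, 10 had a lower member and 0 had a higher one. The share over all 366 miRNAs, against which the counts below are to be read, was 9.56% lower and 0.273% higher, so that lists of this size hold few such members at the share of all. Their medians are given relative to the median of all 366 miRNAs. The chromosome 14 DLK1-DIO3 miRNAs, an imprinted cluster and the largest list, had 4 of 28 lower (miR-134-5p, miR-300, miR-433-3p and miR-485-5p) and a relative median of -0.27. Within this cluster miR-431-5p was among the largest increases, 923 bases from miR-433-3p at -1.59. The miR-17 cluster and its paralogs had 2 of 25 lower, miR-363-3p and miR-106a-3p (-1.83, Ct 34.0 and 33.4), both from the X-chromosome paralog, and a relative median of 0.05. miR-106b-3p had -0.66. The blood lineage list had 2 of 9 lower, miR-144-3p and miR-486-5p (-1.60, close to the threshold), both known from red blood cells, while miR-451a had 0.38.

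The let-7 family, with 0 of 11 past 3-fold, had a relative median of 0.12. The miR-30 family had 0 of 8 and 0.51, the miR-29 family 0 of 5 and 0.42, and the miR-26 family 0 of 2 and 0.84, with 0.68 for miR-26a-5p and 0.40 for miR-26b-5p. The p53-linked list of miR-34, miR-192, miR-194 and miR-215 had 0 of 10 past 3-fold and a relative median of -0.32, with -0.91 for miR-34a-5p. The miRNAs of the chromosome 19 cluster, a placental group with a median Ct at the cap in un-treated My5.LV cells, had 0 of 9 past 3-fold. Their median was the lowest of the 25 lists, -1.30 before the median of all is taken off. List medians count bounds at their computed values. A miRNA at the cap without lenalidomide can have a higher true value, so this median may lie too low. Scarce lists lay on either side of the median of all, with relative medians of 0.35 for miR-143 and miR-145, 0.18 for the muscle list and 0.13 for the miR-200 family.

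Markers of other cell types were checked on both arrays. The blood-cell miRNA miR-142-3p had the lowest Ct of all assays, and miR-150-5p had a Ct of 21.5 without and 19.4 with lenalidomide. The liver miRNA miR-122-5p had a Ct of 33.8 and 31.9. The myeloid markers had log2 fold changes of 1.06 (miR-223-3p) and -1.38 (miR-223-5p), and the 9 epithelial markers ran from -1.48 (miR-205-3p) to 0.97 (miR-429). The lowest Ct was 26.5 and 24.7 for endothelial, 25.7 and 23.5 for epithelial and 28.9 and 26.2 for stromal markers. The muscle miRNA miR-1 had a normalized Ct of 1.12 without and 1.24 with lenalidomide and a log2 fold change of -0.12. Of the neural markers, miR-9-5p had a Ct of 25.2 and 23.3 and a log2 fold change of -0.51. None of the marker lists had a member past 3-fold higher, and the lower markers were miR-124-5p, miR-144-3p, miR-486-5p and miR-302a-3p.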

How the data were processed

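Ct values of miScript miRNA PCR Arrays (SYBR green, Applied Biosystems real-time instrument, miRNeasy total RNA) were used as deposited by the authors, not normalized. Their deposited table of fold changes holds their own comparisons and was not used. Undetermined wells and Ct above 35 were set to 35, and the mean Ct of RNU6-2 and 5 SNORD wells was subtracted. A bound, from a cap on 1 array, was counted only where the bound lies past 3-fold in its own direction. Arrays have no sequencing depth, and each value is 1 well. The members and lists were chosen with earlier results of these data known. miRNAs were named by rule: the 10 largest changes each way, bounds past 3-fold, the 5 lowest mean Ct, the 5 largest differences each way with against without AGO2 cDNA, and a list known in blood and myeloma; exceptions are stated, and opposite arms, seed and list members and neighbours were named with their values seen. The method was run on simulated data, and the error of its calls on the real arrays was not tested. Alternatives were 4 other normalizers, a cap of 32, 2 filters, a 2-fold threshold and, chosen after seeing the data, subtraction of the median of miRNAs of similar Ct. Python 3.11.15, NumPy 2.4.6, pandas 2.3.3 and Matplotlib 3.10.9 were used.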

Additional observations from a re-analysis of the deposited data

Results flagged for a closer look

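In 4 miRNAs the log2 fold change after lenalidomide was past 3-fold in opposite directions in the cell lines with AGO2 cDNA, a difference that was not tested, with 1 array per condition. In My5.LV cells miR-372-3p had -2.49, and in My5.CRBN cells 1.86. In the same order miR-129-5p had -1.68 and 2.11, miR-485-5p had -1.75 and 1.72, and miR-302a-3p had -1.62 and 1.68. Of the lower miRNAs of AGO2 cDNA My5.LV cells, 31 had a value in AGO2 cDNA My5.CRBN cells. There these 4 were past 3-fold higher, and 3 (miR-221-3p, miR-335-3p and miR-924) were past 3-fold lower. Over all miRNAs in AGO2 cDNA My5.CRBN cells, 8.64% were higher and 2.51% were lower by as much. The control wells for cel-miR-39-3p, which enter no comparison, gave a signal under the cap on both arrays and log2 fold changes of -2.39 and -2.63.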

How the results depend on the processing

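At 3-fold, 35 miRNAs were lower and 1 was higher, with a median of -0.30. With the global mean 18 were lower and 5 higher, with a median of 0.0925. With RNU6 alone 73 were lower, with a median of -0.83. With the 5 SNORD wells 2 were higher. With the reverse transcription wells 16 were lower and 7 higher, with a median of 0.16. A cap of 32 left 23 lower, and a Ct under 30 on at least 1 array left 15. At 2-fold 83 were lower and 10 higher. Subtracting the median of miRNAs of similar Ct left 15 lower and gave 10 higher. Of the 11 lower miRNAs measured under Ct 28, 3 were lower with the reverse transcription wells and 4 with the global mean or the subtraction. For the difference with against without AGO2 cDNA, with 34 lower, 8 higher and a median of -0.17, RNU6 alone gave 59 lower and 2 higher, and the reverse transcription wells gave 22 lower with a median of 0.30. A cap of 32 gave 21 lower and 3 higher, a Ct under 30 gave 16 lower and 4 higher, and the subtraction gave 17 lower and 15 higher. The normalizers shift all miRNAs by 1 constant; the cause of the other changes was not tested. No miRNA named by the rule and past 3-fold changed sign under any of the normalizers or the subtraction. These settings moved the named miRNAs by less than 3-fold, so none of their signs could change. Under the cap of 32 the sign was kept for miR-181c-3p, miR-221-3p, miR-549a, miR-575, miR-649 and miR-580-3p. The others named by the rule and past 3-fold have no value there. No paired analysis was possible because each condition had 1 array. Signal near the cap limits the values of scarce miRNAs.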
